A study of Mus musculus with 15 samples.

Results

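The genes described here are 10 feedback genes of the MAP kinase pathway, namely 6 Dusp genes (Dusp1, Dusp2, Dusp4, Dusp5, Dusp6 and Dusp10), Spry1, Spry2, Spred1 and Spred2. They were chosen by name and found by matching the Ensembl IDs of the count table to mouse symbols. All 10 of the 45232 IDs in the table were found, and all 10 were among the 17834 genes that passed the filter on low counts and were tested. LSK cells are marrow cells that lack lineage markers and carry Sca-1 and c-Kit, a gate enriched for stem cells and multipotent progenitors, and their RNA was sequenced in 5 groups of 3 libraries from C57BL/6 mice. In 4 groups the cells were CD45.2+ LSK cells of transplant recipients whose donor marrow carried the Idh2 R140Q and Jak2 V617F alleles, and the recipients were given vehicle, AG221 (40 mg per kg), ruxolitinib (60 mg per kg) or both drugs, called combined treatment. WT LSK cells formed the remaining group. Treatment by gavage lasted 21 to 28 days, with the last dose about 1.5 hours before sacrifice. AG221 is an inhibitor of mutant IDH2 enzyme, and ruxolitinib of JAK1 and JAK2. Per the study's methods the alleles were conditional and switched on with Mx1-Cre, an inducible Cre that is not restricted to stem cells, and the treated recipients also carried WT CD45.1 competitor cells, which the CD45.2 sort leaves out. The labels do not say whether a WT library came from a transplant recipient, nor whether the libraries of a group came from separate mice, so p-values measure only the spread between these libraries.

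Growth factor and cytokine receptors signal through RAS, RAF and MEK to the MAP kinase ERK, and related cascades lead to the MAP kinases p38 and JNK. Cells that receive these signals transcribe genes whose products turn the cascade down. Dusp genes encode dual-specificity phosphatases that remove the activating phosphates from MAP kinases. Sprouty proteins (Spry) restrain receptor signaling upstream of ERK, and Spred proteins act with neurofibromin on RAS. Because several of these genes are transcribed in response to ERK itself, their transcripts are often read as an indirect gauge of pathway output, and in blood stem and progenitor cells the receptor KIT and mutant JAK2 feed into the pathway.

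Promoter sequences were taken from RefSeq for GRCm38.p6, which held an entry for 9 of the 10 genes (Dusp4 had none). Shown are up to 250 bases before the transcription start of the 2 members with a match to a searched motif, and of Spry1 and Spred1, the members that were called with combined treatment. The motifs were a cAMP response element (TGACGTCA), an AP-1 site (TGANTCA), a STAT site (TTCNNNGAA), an ETS site (CCGGAAG) and the serum response CArG box, on both strands. Capitals mark the matches.
Dusp1: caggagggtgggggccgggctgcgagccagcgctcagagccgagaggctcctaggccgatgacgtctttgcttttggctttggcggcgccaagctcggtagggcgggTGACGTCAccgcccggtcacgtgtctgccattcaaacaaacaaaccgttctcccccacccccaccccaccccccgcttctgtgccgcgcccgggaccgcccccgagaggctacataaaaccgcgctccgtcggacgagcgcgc
Dusp5: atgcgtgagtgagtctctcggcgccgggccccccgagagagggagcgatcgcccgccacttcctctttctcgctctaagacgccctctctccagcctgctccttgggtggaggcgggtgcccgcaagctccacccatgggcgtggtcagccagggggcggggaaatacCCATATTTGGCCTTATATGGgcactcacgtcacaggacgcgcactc
Spry1: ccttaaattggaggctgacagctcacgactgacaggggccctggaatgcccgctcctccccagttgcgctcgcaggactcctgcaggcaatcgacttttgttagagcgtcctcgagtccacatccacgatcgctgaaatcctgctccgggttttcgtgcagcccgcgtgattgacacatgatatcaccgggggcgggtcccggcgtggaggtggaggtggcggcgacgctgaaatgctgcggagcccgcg
Spred1: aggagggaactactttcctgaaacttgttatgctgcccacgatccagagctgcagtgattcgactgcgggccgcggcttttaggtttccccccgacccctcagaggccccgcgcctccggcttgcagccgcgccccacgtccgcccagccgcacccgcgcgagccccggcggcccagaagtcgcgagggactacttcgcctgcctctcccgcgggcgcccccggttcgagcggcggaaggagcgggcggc
The Dusp1 stretch (chr17:26508473-26508722, minus strand) held a cAMP response element that began 143 bases before the RefSeq start. The searched stretches of Dusp1 and Dusp10 lie within the GENCODE spans of these genes, downstream of their GENCODE starts. The Dusp5 stretch (chr19:53528895-53529108, plus strand, ending where the GENCODE transcript begins) held adjoining CArG boxes that began 82 and 72 bases before the RefSeq start. The stretches of Spry1 (chr3:37639697-37639946) and Spred1 (chr2:117120821-117121070), both on the plus strand, held no match, nor did those of Dusp2, Dusp6, Dusp10, Spry2 and Spred2. Among 32851 promoter entries, 1.55% held the cAMP response element, 1.47% the CArG box, 6.75% the AP-1 site, 7.02% the STAT site and 6.91% the ETS site in the 250 bases before the start. A match describes these letters only, and no binding was measured.

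Total counts ran from 18836625 to 32174287 per library, and values are given as CPM, the usual scaling of counts to library size, on TMM-scaled library sizes. The LSK markers Kit (739.8 to 1552 CPM) and Cd34 (665 to 1108 CPM) were present in every library, while Ly6a, which encodes Sca-1, ran from 13.1 CPM in a vehicle library to 165.8 CPM in another. The whole list of 11 LSK markers summed to 4291 to 4681 CPM in WT, 2444 to 3812 CPM with vehicle, 2567 to 2995 CPM with AG221, 2923 to 3448 CPM with ruxolitinib and 2836 to 3667 CPM with combined treatment. With vehicle against WT, 2 of the 11 rose (Cd48 and Slamf1) and 3 fell (Hlf, Flt3 and Procr). The targeted genes do not check the labels, since an allele that changes a codon is not visible in a gene's total count. Jak2 lay between 20.1 and 24.1 CPM with vehicle and between 27.1 and 38.4 CPM in WT, and Idh2 between 212.5 and 461.3 CPM and between 376.1 and 440.0 CPM. WT libraries expressed Xist (455.4 to 511.3 CPM) and almost no Ddx3y (0 to 0.101 CPM), and the mutant libraries the reverse (Xist 0.365 to 19.5 CPM, Ddx3y 124.4 to 206.2 CPM). The WT cells and the donor-derived mutant cells thus differed in sex pattern. All vehicle, AG221 and ruxolitinib libraries have names that start with A, and all combined and WT libraries names that start with B. What the letter stands for is not stated, and its part cannot be told apart from that of the groups. AG221 and ruxolitinib against vehicle, and combined treatment against WT, compare libraries of the same letter. AG221 libraries A8 and A10 and ruxolitinib library A16 stood apart. With the tested genes split into 5 classes by GC content, the median log2 deviation of the GC-richest class minus that of the GC-poorest was -0.81, -0.53 and -0.27 in them, against -0.09 to 0.29 in the other 12 libraries. Some values that rest on these libraries are given with and without them, and others only with them. Leaving them all out leaves A9 as the only AG221 library, so a call lost there cannot be told apart from the loss of replicates. In bulk RNA of this kind, fewer cells of a type and less RNA per cell cannot be told apart.

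Per kilobase of exon, Dusp6 and Dusp1 were the most abundant members in every group. In WT, Dusp6, which acts on ERK in the cytoplasm, lay at 38.1 ± 3.53 CPM per kb (SD, n = 3), and Dusp1, a nuclear phosphatase of p38, JNK and ERK, at 19.0 ± 7.79. Dusp2 followed at 6.42 ± 2.03 CPM per kb, then Spred2 (4.32 ± 0.56), Dusp4 (4.05 ± 1.05), Spred1 (3.02 ± 0.30), Dusp10 (2.32 ± 0.26), Dusp5 (1.99 ± 0.93), Spry1 (1.59 ± 0.10) and Spry2 (1.04 ± 0.18). Of neighbors in this WT order, Spred2 and Dusp4, Dusp4 and Spred1, Dusp10 and Dusp5, and Dusp5 and Spry1 overlapped in their library values. With vehicle, Dusp1 (57.3 ± 23.6 CPM per kb) and Dusp6 (55.9 ± 13.2) overlapped at the top, and Spry1 (7.41 ± 5.51) overlapped Dusp2 (7.53 ± 3.13).

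**Figure D1:**
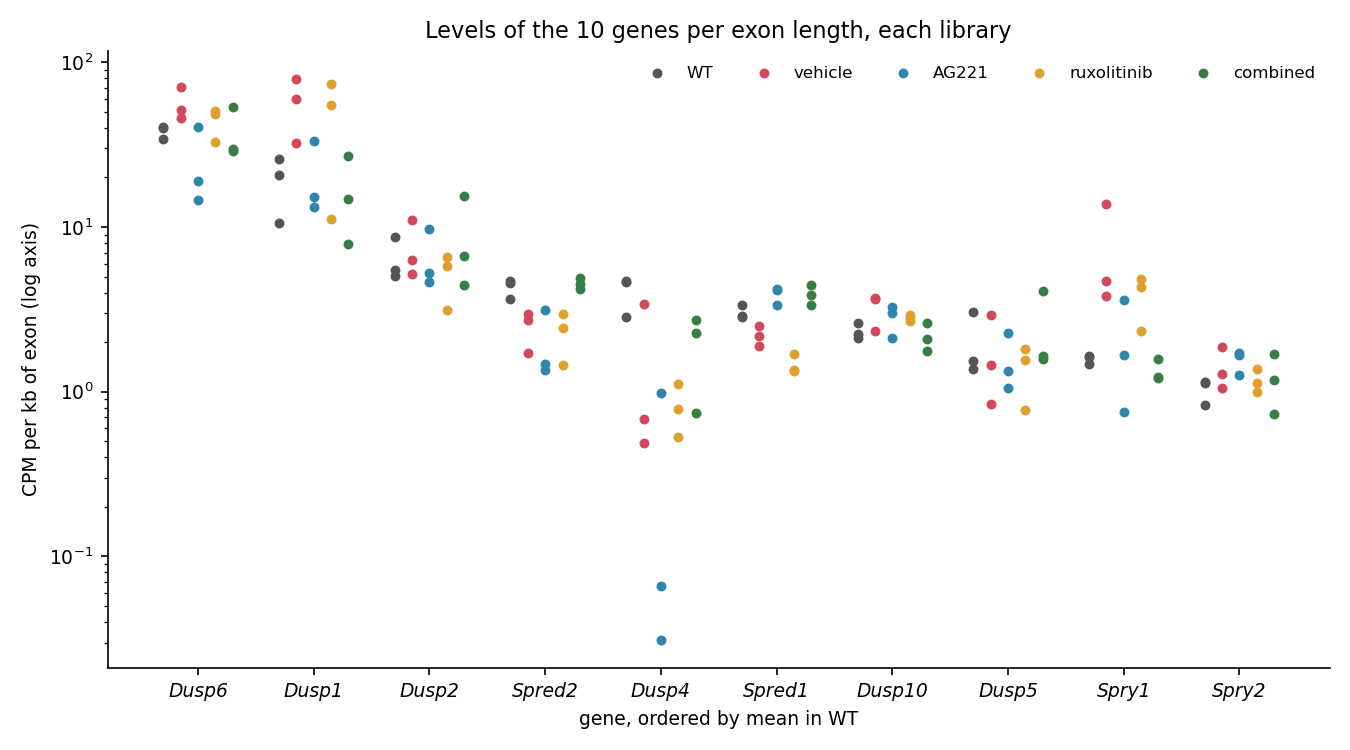
Levels of the 10 genes per exon length in all 15 libraries, as CPM per kb of exon on a log axis, with genes ordered by their WT mean and each point a library colored by group. Dusp6 and Dusp1 lie above the other 8 genes in all 15 libraries, and Dusp4 falls to its lowest values in 2 AG221 libraries.

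Spry1 was the member with the clearest difference between untreated disease and WT. Its product is a Sprouty protein that restrains receptor tyrosine kinase signaling to ERK, and the gene lies at chr3:37639947-37644598 (GRCm38). Spry1 measured 4.28, 4.82 and 4.73 CPM in the WT libraries and 11.1, 40.0 and 13.6 CPM in the vehicle libraries A1, A3 and A4. With AG221 it measured 2.18, 10.5 and 4.84 CPM in A8, A9 and A10, with ruxolitinib 14, 6.75 and 12.6 CPM in A14, A16 and A17, and with combined treatment 3.55, 4.6 and 3.52 CPM. All 3 vehicle libraries lay above all WT and all combined libraries, and A3 was the highest of the 15. Spry1 was 4.67-fold higher with vehicle than in WT (log2 fold change 2.22 ± 0.55 SE, adjusted p = 0.0112, edgeR quasi-likelihood test with Benjamini-Hochberg adjustment over all tested genes). It was 5.53-fold lower with combined treatment than with vehicle (-2.47 ± 0.55, adjusted p = 0.0109). AG221 against vehicle gave -1.89 ± 0.54 (adjusted p = 0.0765), not called. It was called by DESeq2 (-1.86), by edgeR with no filter beyond 1 count (-1.88) and without A9 (-2.62), and it was -1.09 without vehicle library A3 and -1.06 without A8, A10 and A16. With ruxolitinib against WT Spry1 lay at 1.27 ± 0.53 (adjusted p = 0.081), not called, and at 1.53 and called without A8, A10 and A16. Against WT, the combined group differed by -0.24 ± 0.54 (adjusted p = 0.807). Without vehicle library A3 the log2 fold change was 1.44 against WT, still called, and -1.66 for combined treatment against vehicle, no longer called. The latter call was also lost without combined library B24 (-2.40). The vehicle libraries entered both comparisons, so the rise and the fall are not independent of each other. An annotated gene on the opposite strand, Gm42922, covers 24.4% of the Spry1 exon length, and since the strand setting of the counting is not given in the sources used here, its reads cannot be told apart from those of Spry1.

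Spred1 moved in a different order across the groups. Spred1 inhibits the step from RAS to RAF by bringing neurofibromin to the membrane, and the gene lies at chr2:117121374-117182279. It measured 19.2, 19.4 and 22.9 CPM in WT, 16.9, 12.9 and 14.7 CPM with vehicle, and 9.09, 11.5 and 9.14 CPM with ruxolitinib. With AG221 it measured 28.1, 28.6 and 22.7 CPM, and with combined treatment 23.0, 26.1 and 30.2 CPM. The ruxolitinib libraries were the lowest, the vehicle libraries came next, and neither overlapped any other group, while the AG221 and combined libraries overlapped each other. Spred1 rose 1.78-fold with combined treatment against vehicle (log2 fold change 0.83 ± 0.18 SE, adjusted p = 0.00876 in edgeR) and stayed called without any of the 6 libraries in turn. It was 2.66-fold higher with combined treatment than with ruxolitinib (1.41 ± 0.18, adjusted p = 0.000742), and 2.07-fold lower with ruxolitinib than in WT (-1.05 ± 0.18, adjusted p = 0.00256). With AG221 alone against vehicle the change was the same size (0.83 ± 0.18), but the adjusted p was 0.0471, and leaving out any of the 6 libraries but A9 ended the call, at log2 fold changes of 0.74 to 0.97. AG221 and combined treatment differed by -0.0027 ± 0.18 on the log2 scale (adjusted p = 0.993). Against WT, the vehicle libraries lay lower by -0.47 ± 0.18 (adjusted p = 0.0575). Spred1 transcripts have a GC content of 41.5%, the lowest of the 10 genes. The call with AG221 against vehicle held in 5 of 7 alternatives other than leaving out libraries, and not in a fit of only the groups compared. With a GC content offset per library the AG221 change was 0.75 and still called. Without A8, A10 and A16, with A9 the only AG221 library, it was 0.93.

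Spred2, a close relative of Spred1 (chr11:19924375-20024026), was low in every mutant group but the combined one. It measured 21.1, 21.8 and 17 CPM in WT and 20.7, 22.5 and 19.5 CPM with combined treatment. With vehicle it measured 7.93, 13.8 and 12.7 CPM, with AG221 6.24, 14.4 and 6.84 CPM, and with ruxolitinib 13.8, 6.67 and 11.3 CPM. Every WT and combined library lay above every library of the other 3 groups. Spred2 was called lower with AG221 than in WT (log2 fold change -1.12 ± 0.34 SE, adjusted p = 0.0142 in edgeR) and lower with ruxolitinib than in WT (-0.92 ± 0.33, adjusted p = 0.0499), and it was 2.29-fold higher with combined treatment than with AG221 (1.19 ± 0.34, adjusted p = 0.0167). Vehicle against WT (-0.80 ± 0.33, adjusted p = 0.0773) and combined treatment against vehicle (0.87 ± 0.33, adjusted p = 0.11) were not called. The 3 lowest values with AG221 or ruxolitinib came from A8, A10 and A16. Without these libraries, with A9 the only AG221 library, the log2 fold changes were -0.47 (AG221 against WT) and 0.52 (combined treatment against AG221). Ruxolitinib against WT was then -0.66 and not called. Leaving out A8 or A10 alone ended both AG221 calls, and leaving out A16, A17 or any WT library ended the ruxolitinib call, which kept its direction. The GC content of Spred2 transcripts is 51.9%, against a median of 49.4% over the tested genes. With a GC content offset per library, AG221 against WT was -1.22 and still called. Both AG221 calls held in all 7 alternatives other than leaving out libraries, and the ruxolitinib call in 6 of them.

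**Figure D2:**
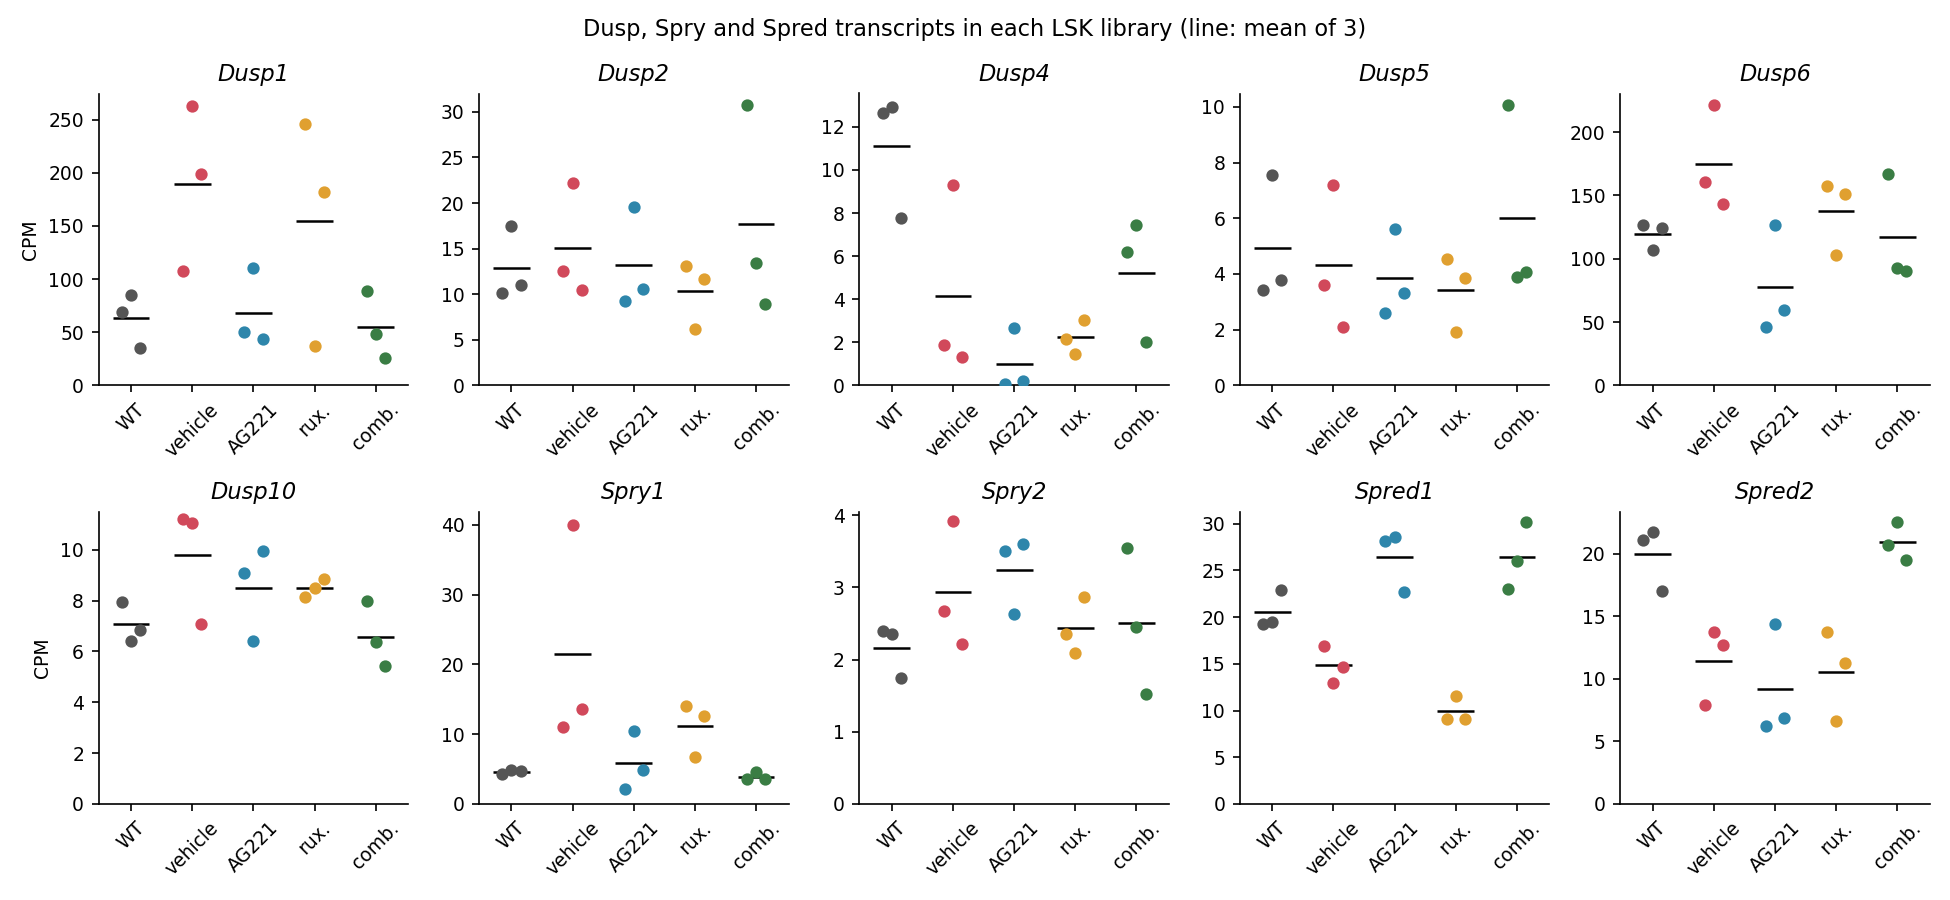
CPM of each member in all 15 libraries, with a panel for each gene, points for libraries and a line for the mean of 3. Spry1 is higher in every vehicle library than in every WT or combined library, Spred1 is lowest with ruxolitinib and highest with AG221 and combined treatment, and Spred2 is highest in WT and combined libraries.

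Dusp1, an early response gene (chr17:26505590-26562128), had the highest vehicle mean per kb of the 10 genes, and its libraries differed widely within groups. Dusp1 measured 68.7, 85.5 and 34.8 CPM in WT and 107.5, 263 and 199 CPM with vehicle. With AG221 it measured 50.3, 110.0 and 44 CPM, with ruxolitinib 246, 37.3 and 182 CPM, and with combined treatment 88.9, 48.7 and 26 CPM. The vehicle libraries lay above the WT and the combined libraries without overlap, and ruxolitinib library A16 lay with the low groups. The log2 fold change was 1.59 ± 0.63 for vehicle against WT (adjusted p = 0.0662 in edgeR) and -1.80 ± 0.64 for combined treatment against vehicle (adjusted p = 0.0837), neither called. Both were called by DESeq2, at 1.61 and -1.80. Vehicle against WT was also called by edgeR with no filter beyond 1 count (1.64) and with only the groups compared (1.54). Each change was called in 3 of 7 alternatives other than leaving out libraries, and in 0 of 6 fits that left out a library. With ruxolitinib against WT the log2 fold change was 1.30 ± 0.63 (adjusted p = 0.121), not called, and without A16 it was 1.81 and called.

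Dusp6, a transcript known to follow ERK activity closely (chr10:99263231-99267489), measured 127, 107 and 124 CPM in WT and 160.2, 222 and 143 CPM with vehicle. It measured 45.9, 127 and 59.5 CPM with AG221, 158, 103 and 151 CPM with ruxolitinib, and 167, 93.0 and 90.4 CPM with combined treatment. All vehicle libraries lay above all WT and all AG221 libraries. With all libraries and all groups in the fit, edgeR called Dusp6 in none of the 10 comparisons. Fitted with only the 2 groups compared, it was called with vehicle against WT (0.52), and without A9 with AG221 against WT (-1.16) and with combined treatment against AG221 (1.15). Its lowest adjusted p came with AG221 against vehicle (log2 fold change -1.18 ± 0.35, adjusted p = 0.08), where DESeq2 called it (-1.15) and the values without A8, A9 or A10 ran from -1.74 without A9, which was called, to -0.89 without A8, which was not. Without A8, A10 and A16 it was -0.48.

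Dusp4, a nuclear ERK phosphatase (chr8:34807297-34819894), had the lowest log2 fold change against WT of the 10 genes in every mutant group. It measured 12.6, 12.9 and 7.78 CPM in WT, 1.88, 9.29 and 1.34 CPM with vehicle and 2.17, 1.45 and 3.06 CPM with ruxolitinib. With AG221 it measured 0.086, 2.67 and 0.182 CPM, from 2, 57 and 5 counts, and with combined treatment 6.21, 7.43 and 2.04 CPM. The AG221, ruxolitinib and combined libraries lay below all WT libraries, and vehicle library A3 lay within the WT range. Dusp4 was called lower with AG221 than in WT (log2 fold change -3.53 ± 1.01 SE, adjusted p = 0.0118 in edgeR), where A8 and A10 hold 2 and 5 counts. It was -2.98 without A8 and -3.02 without A10, and all 6 fits that left out a library called it. Without A8, A10 and A16, with A9 the only AG221 library, it was -2.05. Against WT, ruxolitinib gave -2.31 ± 0.94 (adjusted p = 0.073) and vehicle -1.41 ± 0.90 (adjusted p = 0.238), and without vehicle library A3 the latter was -2.76.

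The other 4 members were not called in any comparison. Dusp2, a phosphatase induced in activated blood cells, ran from 6.24 to 30.8 CPM, and Dusp5, a nuclear phosphatase of ERK, from 1.92 to 10.1 CPM. Both had their highest value in combined library B24, and their groups overlapped in all comparisons. Dusp10, which acts on p38 and JNK, ran from 5.41 CPM with combined treatment to 11.2 CPM with vehicle, and its largest change was -0.57 ± 0.24 with combined treatment against vehicle (adjusted p = 0.136). Spry2, a Sprouty relative of Spry1, stayed between 1.53 and 3.92 CPM. Unlike Spry1, Spry2 was not called against WT with vehicle (0.44 ± 0.32, adjusted p = 0.296), and whether the 2 genes differ was not tested. An opposite-strand gene, AC137853.2, covers 22.1% of the Dusp5 exon length.

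Counted over the 10 genes, 1 was called with vehicle against WT, beside 33.3% of all tested genes, so the members' share was no larger than the background. The groups did not overlap for 5 members (Dusp1, Dusp6 and Spry1 higher, Spred1 and Spred2 lower), beside 56.9% of all tested genes. The median log2 fold change was 0.34 over the members and -0.09 over all genes. With AG221 against vehicle 1 member was called (Spred1) beside 0.987% of all genes, and 3 did not overlap (Spred1 higher, Dusp6 and Spry1 lower) beside 20.0%. The members' median was -0.26 against -0.01 over all genes, and 8 of the 10 values were below 0. With combined treatment against vehicle 2 members were called (Spry1 lower, Spred1 higher) beside 12.5% of all genes, and 4 did not overlap (Dusp1 and Spry1 lower, Spred1 and Spred2 higher) beside 34.7%. The members' median was 0.00 there.

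With ruxolitinib against vehicle all 10 log2 fold changes were below 0, from -0.95 for Spry1 to -0.12 for Spred2, and edgeR and DESeq2 each called 0 members, beside 0.0168% of all genes. At an unadjusted p under 0.05 there was 1 member, Spred1 (-0.58 ± 0.18, adjusted p = 0.828), the only member whose groups did not overlap, beside 8.17% of all genes. The signs rest on vehicle library A3 in part, since without it Dusp1, Dusp4, Dusp5 and Spred2 turned to between 0.01 and 0.47.

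**Figure D3:**
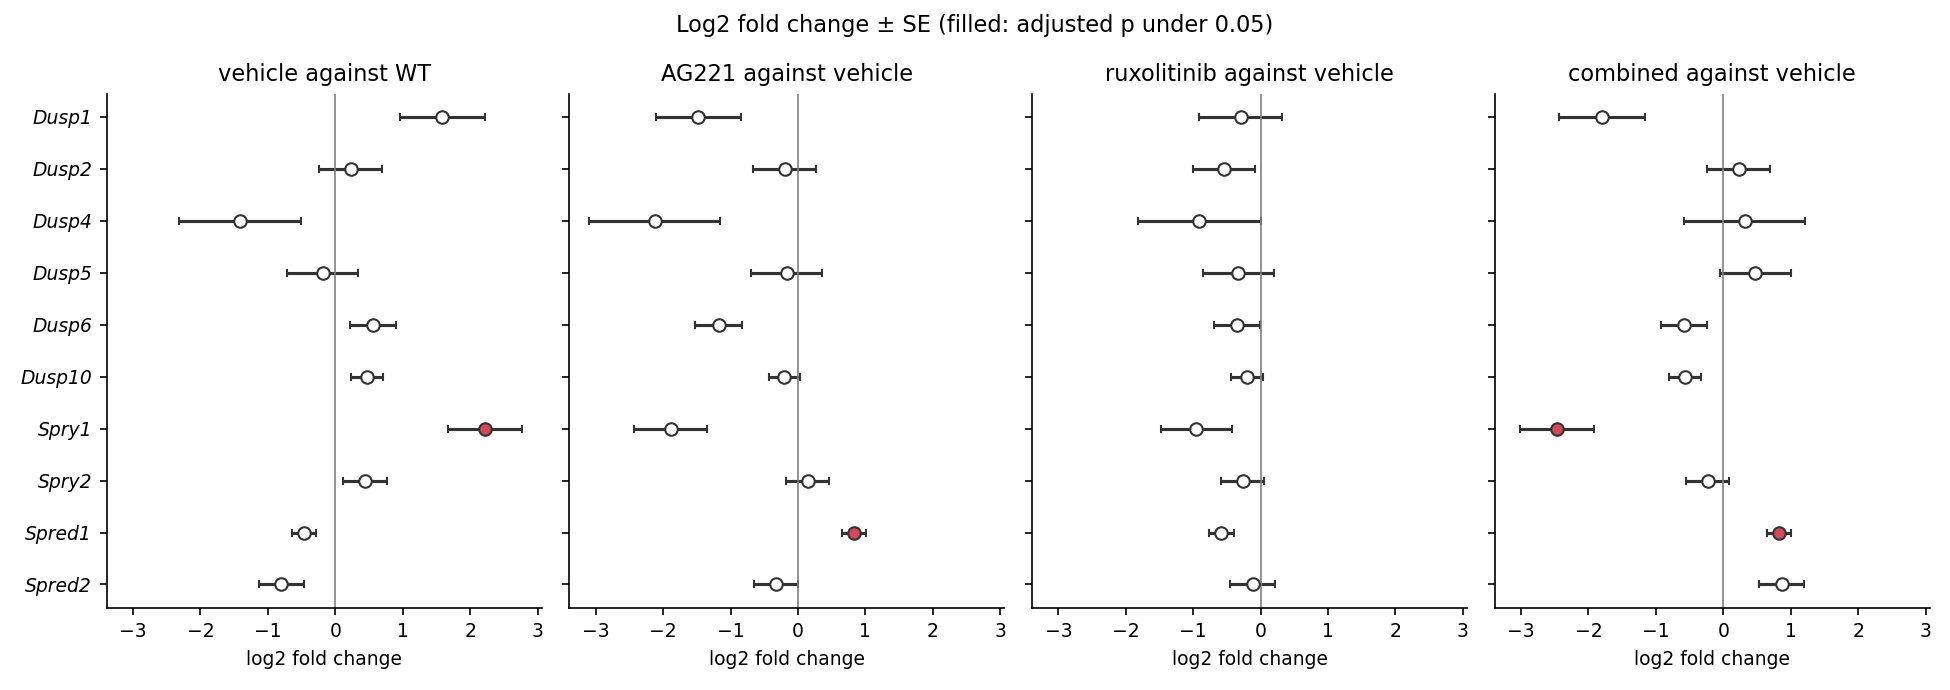
Log2 fold change of each member with its SE for vehicle against WT and for each treatment against vehicle, with filled points where the adjusted p was under 0.05. The filled points are Spry1 with vehicle against WT (2.22), Spred1 with AG221 (0.83) and with combined treatment (0.83), and Spry1 with combined treatment (-2.47).

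Against WT, 2 members were called with AG221 (Dusp4 and Spred2, both lower) beside 50.7% of all genes, and 2 with ruxolitinib (Spred1 and Spred2, both lower) beside 32.3%. With combined treatment against WT edgeR and DESeq2 called 0 of 10 members, 0 had an unadjusted p under 0.05, and 3.25% of all genes were called. The member values lay between -1.08 ± 0.90 for Dusp4 and 0.46 ± 0.47 for Dusp2. Between treatments, 1 member was called with combined treatment against AG221 (Spred2) beside 33.2% of all genes, and 1 against ruxolitinib (Spred1) beside 12.4%. Spry1 lay at -1.51 ± 0.54 with combined treatment against ruxolitinib (adjusted p = 0.0892), not called. It was called in 4 of 7 alternatives other than leaving out libraries, and in 0 of 6 fits that left out a library.

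Whether combined treatment differed from the sum of both monotherapy changes was tested as an interaction of the 4 mutant groups. Only the combined libraries among them have B names, so the letter's part cannot be told apart from a departure. edgeR called 0 members, beside 8.42% of all genes, 3 had an unadjusted p under 0.05 and DESeq2 called 2. These 3 were Spred2 (log2 departure 1.31 ± 0.47, adjusted p = 0.0834), Dusp4 (3.35 ± 1.34, adjusted p = 0.11) and Spred1 (0.58 ± 0.25, adjusted p = 0.135). Without A8, A10 and A16 the departures of Spred2, Dusp4 and Spred1 were 0.41, 1.64 and 0.58. For Spred1 the monotherapy changes had opposite signs, 0.83 with AG221 and -0.58 with ruxolitinib.

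**Figure D4:**
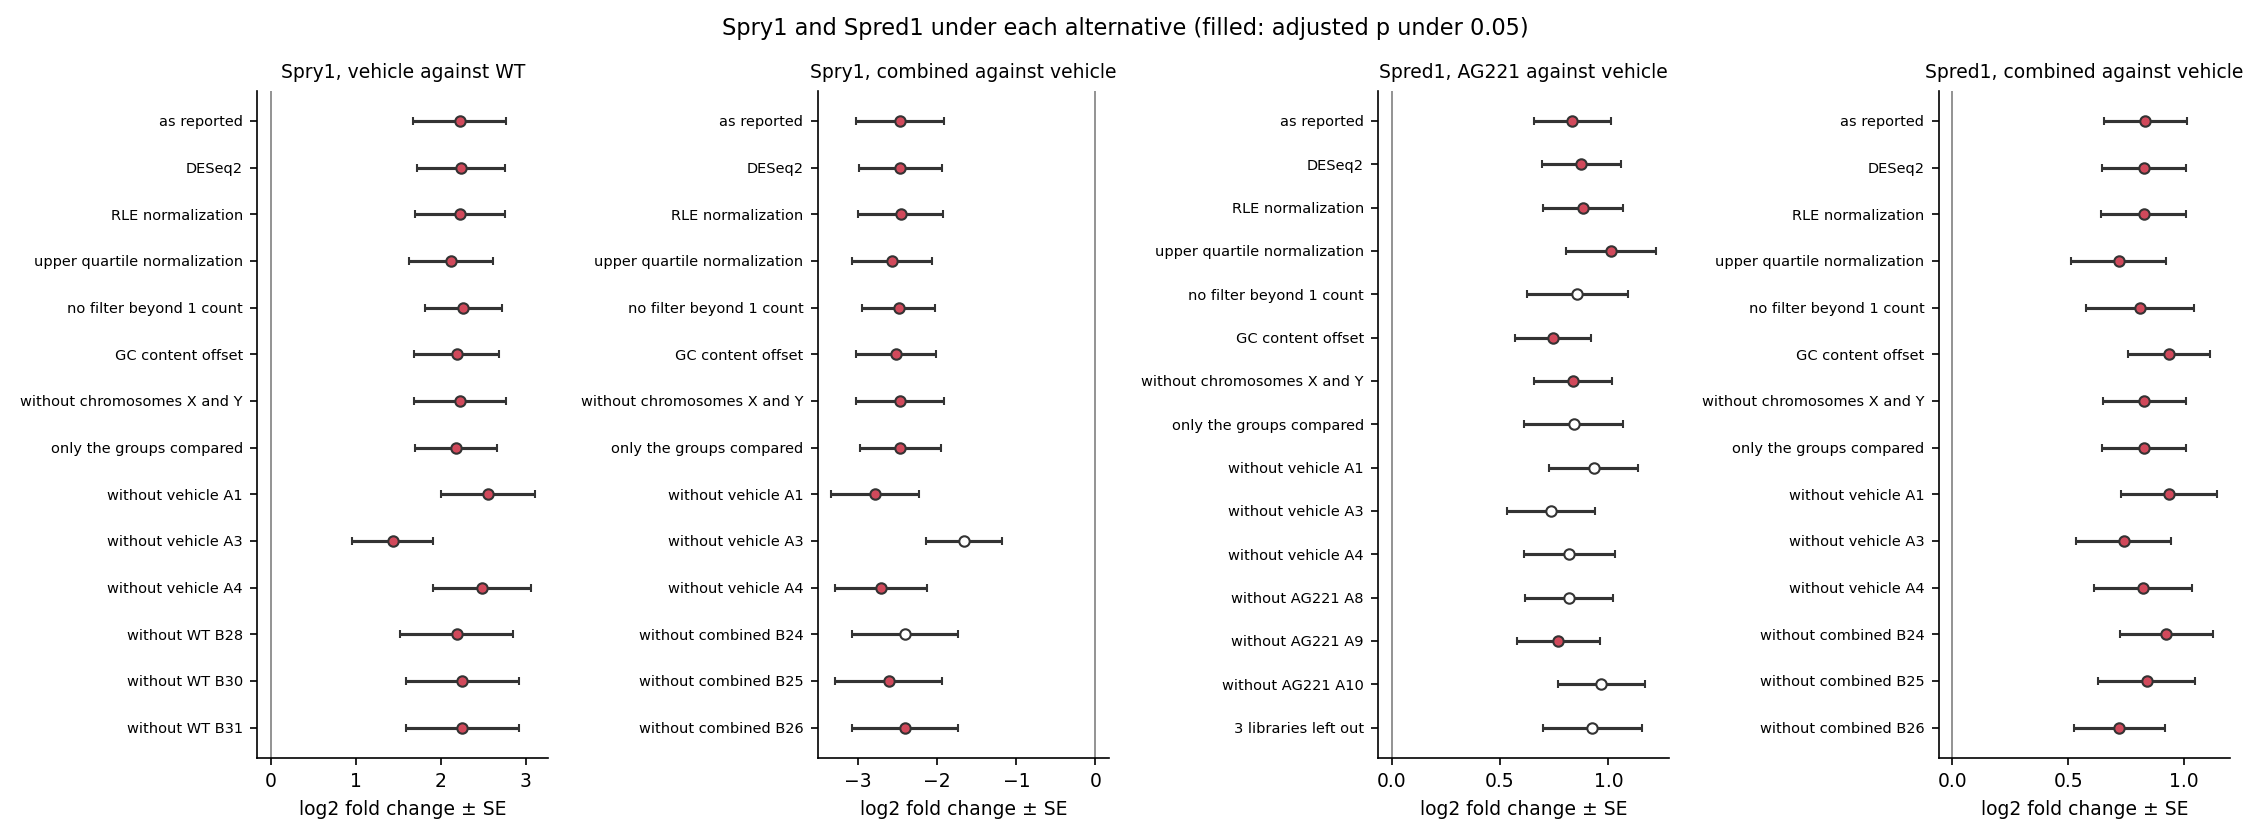
Log2 fold change with SE of Spry1 and Spred1 under each alternative processing and without each library, with filled points where the adjusted p was under 0.05. Spry1 against WT is filled throughout, and Spry1 with combined treatment opens without A3 or B24. Spred1 with AG221 opens without any library but A9, and is filled in 5 of 7 alternatives other than leaving out libraries. Spred1 with combined treatment is filled throughout.

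The genes around the members in the pathway were read from lists, whose counts stand beside 33.3% of all tested genes called with vehicle against WT and 12.5% with combined treatment against vehicle. Of the other MAP kinase phosphatases, 3 of 4 were tested, and Dusp7, a cytoplasmic ERK phosphatase, was lower with vehicle than in WT (2.55 ± 0.18 against 5.57 ± 0.35 CPM, log2 fold change -1.13 ± 0.30, adjusted p = 0.0146) and rose with combined treatment (8.73 ± 1.32 CPM, 1.78 ± 0.30, adjusted p = 0.00329). Of 20 adaptors and regulators between receptors and RAS, 3 rose and 7 fell with vehicle against WT, and 7 rose and 1 fell with combined treatment against vehicle. Gab1, an adaptor of receptor signaling, was lower with vehicle than in WT (-1.31 ± 0.26, adjusted p = 0.00476), as was Rras2, a RAS relative (-2.12 ± 0.39, adjusted p = 0.00368). Rras2 rose with combined treatment (2.18 ± 0.39, adjusted p = 0.00381), and so did Rasa1, which switches RAS off (1.42 ± 0.21, adjusted p = 0.0021). Cblb, a ubiquitin ligase of receptors, rose with vehicle (0.47 ± 0.14, adjusted p = 0.0239) and fell with combined treatment (-0.55 ± 0.14, adjusted p = 0.0226). Of 10 RAF to ERK kinases and scaffolds, edgeR called 0 with vehicle against WT (1 at an unadjusted p under 0.05, and DESeq2 called 1), and 2 rose with combined treatment, among them Map2k2, which encodes MEK2 (2.29 ± 0.52, adjusted p = 0.0119). Of 10 p38 and JNK kinases, 2 fell with vehicle against WT and 2 rose with combined treatment, and Mapk14, which encodes p38 alpha, did both (-0.91 ± 0.25, adjusted p = 0.0182, and 1.54 ± 0.26, adjusted p = 0.00314).

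Of 13 ERK output genes outside the Dusp and Sprouty families, 4 rose with vehicle against WT and 3 fell with combined treatment against vehicle. Egr1 and Ier3, early response genes that are counted again in the list of immediate early genes below, and Phlda1 did both. Phlda1 rose by 2.92 ± 0.52 (adjusted p = 0.00317) and then fell by 2.81 ± 0.52 (adjusted p = 0.00443), and Ier3 rose by 2.65 ± 0.16 (adjusted p = 5.57e-07) and fell by 2.41 ± 0.16 (adjusted p = 4.61e-06). The list's median log2 fold change was 0.45 with vehicle against WT (-0.09 over all genes) and -0.19 with combined treatment against vehicle (0.04 over all genes).

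Other transcripts also differed between the groups. Of 15 immediate early genes, which respond quickly to growth factors and other stimuli, 13 rose with vehicle against WT (median 3.61) and 12 fell with combined treatment against vehicle (median -3.82). Fos ran from 1820 to 4975 CPM with vehicle, 1426 to 1731 CPM with AG221 and 1589 to 2500 CPM with ruxolitinib, against 33.4 to 129.1 CPM with combined treatment and 79.8 to 126.0 CPM in WT, so it separated the A from the B sample names. Spred2 followed that split fully, with 17 to 22.5 CPM in the B libraries and 6.24 to 14.4 CPM in the A libraries, as did Dusp7 (5.16 to 10.2 CPM against 1.58 to 4.6 CPM). Spry1 nearly followed it, since every A library but A8 (2.18 CPM) lay above the B libraries (3.52 to 4.82 CPM), A10 narrowly at 4.84 CPM. Both Spry1 calls, with vehicle against WT and with combined treatment against vehicle, compare A with B libraries. Dusp1 was low in some AG221 and ruxolitinib libraries, and Spred1 did not follow the split. Of 8 heat shock genes, 2 rose and 3 fell in the same comparisons, and of 7 tested glucocorticoid-induced genes 3 rose and 1 fell, then 1 rose and 3 fell. The part of these programs in the member values was not tested. Summed markers of other cell types also moved. The 9 neutrophil genes, of which 3 rose with vehicle against WT and 1 fell with combined treatment against vehicle, summed to 3267 to 3628 CPM in WT, 7287 to 12080 CPM with vehicle, 15970 to 18780 CPM with AG221, 11490 to 18320 CPM with ruxolitinib and 3967 to 7032 CPM with combined treatment, with Ly6g at 3 counts or fewer in every WT library. The 3 that rose with vehicle were Mpo, Elane and Prtn3, granule genes that progenitors also express, while Ly6g, a marker of mature neutrophils, lay at 0.032 to 0.60 CPM with vehicle. Against WT, 8 of the 9 were called higher with AG221 and 5 with ruxolitinib, beside 50.7% and 32.3% of all tested genes called in either direction. The 5 mast cell and basophil genes, 4 of which rose with vehicle, summed to 71.3 to 147.5 CPM in WT and 495.9 to 989.7 CPM with vehicle, the 6 megakaryocyte genes (3 rose) to 249.2 to 337.8 and 860.4 to 920.7 CPM, and the 5 plasma cell genes (4 fell) to 593.7 to 1274 and 65.2 to 156.4 CPM. Of the other lists, 2 of 6 B-lineage genes fell, and 1 of 7 T and NK cell genes, 2 of 7 erythroid genes and 1 of 8 monocyte and dendritic cell genes rose with vehicle against WT. The part of cell composition in the member values was not tested.

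The genes whose pattern lay nearest to each member were found by the root mean square difference of centered log2 CPM over all 15 libraries. Gdf15 (0.54) and Jun (0.55) lay nearest to Dusp1, and Nfkbid (0.45) and Hist1h2bc (0.46) to Spry1, whose own SD was 1.07 in both cases. Dusp2 and Dusp5 were each other's nearest gene (0.26), followed by Mcl1 (0.30) for Dusp2 and Midn (0.33) for Dusp5. Mycn (0.58) and Gimap1 (0.65) were nearest to Dusp4, Map2k7 and Plcg2 (0.21 each) to Dusp6, and Abcc1 (0.12) and 2610005L07Rik (0.14) to Dusp10. For Spred1 they were Osbp (0.18) and Tent4a (0.19), for Spred2 Ehmt2 (0.14) and Atg16l1 (0.15), and for Spry2 Fkbp7 (0.22) and 8430429K09Rik (0.24). Libraries share depth and base composition, so the distances are a description.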

How the data were processed

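RNA was sequenced from LSK cells in 5 groups of 3 libraries, assigned from the sample labels. The authors deposited raw counts of reads per Ensembl gene, made with STAR 2.5.1a on mm10 (GRCm38), and a table scaled with DESeq2 1.6.3, which was not used. The Ensembl release and strand setting are not given in the sources used here. Symbols, coordinates and exon lengths came from GENCODE M21, which gave 44585 of 45232 IDs a symbol. Promoters came from RefSeq.

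Genes passing filterByExpr by group (17834) were fitted with edgeR 4.0.16 in R 4.3.3, with TMM scaling, all 15 libraries in a quasi-likelihood fit and no covariates. The 10 comparisons were Benjamini-Hochberg adjusted over all tested genes and called under 0.05. Log2 CPM used a prior count of 2. On data simulated for vehicle against WT, 100% of 50 genes raised by 2 on the log2 scale were called, and 14% of 50 raised by 1. Total counts were 18836625 to 32174287, and replicate pairs differed by 13.7 to 155 chi-square units per degree of freedom, more than counting error.

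Named genes were the 10 members, at most 3 genes per list and direction with the smallest adjusted p in vehicle against WT or combined against vehicle, sex and target genes, and the 2 genes nearest to each member. Some list genes that this rule picks are not reported here. Members and lists were chosen with earlier results of these data known. Alternatives were DESeq2 1.42.0, RLE and upper quartile scaling, no filter beyond 1 count, a GC content offset (lowess span 0.3), no genes of chromosomes X and Y, only the groups compared, each library left out, and a prior count of 0.5.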

Additional observations from a re-analysis of the deposited data

How the results depend on the processing

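The number of members called depended on the processing. DESeq2 called 3 with vehicle against WT, 4 with ruxolitinib against WT, 3 with AG221 against vehicle, 2 with combined treatment against AG221, 3 with combined treatment against ruxolitinib and 2 for the departure from additivity. Upper quartile scaling called 2 with vehicle against WT and 2 with combined treatment against ruxolitinib, as did no filter beyond 1 count, which also called 2 with combined treatment against AG221. The GC content offset called 2 with vehicle against WT. A fit of only the groups compared called 4 with vehicle against WT, 4 with ruxolitinib against WT, 0 with AG221 against vehicle and 2 with combined treatment against ruxolitinib. Why the counts differed was not tested. RLE scaling and leaving out chromosomes X and Y changed no count by more than 1.5 times. Upper quartile scaling moved the median of all genes from -0.01 to 0.18 with AG221 against vehicle and from 0.11 to -0.18 with combined treatment against AG221, and it changed the sign of none of the member values given for vehicle against WT and the treatments against vehicle.

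Leaving out A8, A10 and A16 together, an alternative chosen after seeing the data in which the lone AG221 library is assumed to vary like the other groups, called 0 with AG221 against WT, 0 with AG221 against vehicle, 0 with combined treatment against AG221 and 3 with combined treatment against ruxolitinib. It turned Dusp2 (0.36), Dusp5 (0.37), Spry2 (-0.18) and Spred2 (0.31) with AG221 against vehicle, and Dusp1 (0.16) and Spred2 (0.12) with ruxolitinib against vehicle.

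Leaving out a single library called 1 to 3 members with AG221 against WT, 1 to 2 with ruxolitinib against WT, 0 to 4 with AG221 against vehicle, 1 to 2 with combined treatment against vehicle, 0 to 3 with combined treatment against AG221, 1 to 2 with combined treatment against ruxolitinib and 0 to 3 for the departure. The highest counts of the comparisons with AG221 and of the departure came without A9. Values whose sign turned ran, with vehicle against WT, from -0.14 to 0.52 for Dusp2 and -0.76 to 0.26 for Dusp5. With AG221 against vehicle they ran from -0.61 to 0.19 for Dusp2, -0.55 to 0.42 for Dusp5 and -0.030 to 0.40 for Spry2. With ruxolitinib against vehicle they ran from -0.79 to 0.17 for Dusp1, -1.33 to 0.47 for Dusp4, -0.66 to 0.26 for Dusp5 and -0.35 to 0.13 for Spred2. With combined treatment against vehicle they ran from -0.43 to 0.62 for Dusp2, -0.10 to 1.69 for Dusp4, -0.11 to 1.07 for Dusp5 and -0.56 to 0.034 for Spry2. No member whose sign turned was called in that comparison. A prior count of 0.5 moved all 10 mean levels by less than the SD over libraries. No paired analysis was possible because the replicate names differ between groups.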
